A study of Homo sapiens with 6 samples.

Results

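The 52 genes described here encode the machinery that licenses replication origins, unwinds DNA and copies it at the fork, and all 52 were found by symbol among the 14803 genes of the count table. They were selected by gene symbol, and each was put under a role from what its protein is known to do. RNA was sequenced from MCF-12A, a single line of human mammary epithelial cells that are not tumorigenic and are described as estrogen receptor negative. There were 3 libraries from cells exposed for 24 h to octanoic acid (OA), the saturated fatty acid of medium chain length also called octanoate, and 3 from cells exposed as long to the vehicle, phosphate-buffered saline (PBS). Whether the 3 libraries of each group were grown as separate cultures is not stated, so the p-values cover a spread between libraries that may be technical only.

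DNA replication is prepared in G1 phase, when the origin recognition complex (ORC) with CDC6 and CDT1 loads the ring-shaped MCM helicase onto DNA. In S phase, the kinase CDC7 with its activator DBF4, together with cyclin-dependent kinases, turns the loaded ring into an active helicase by adding CDC45 and the GINS complex. Polymerase alpha with primase starts each strand, polymerases epsilon and delta extend it, and PCNA, loaded by RFC, holds the polymerases on DNA. Many of these genes are known targets of E2F transcription factors, which are active in proliferating cells and restrained by the RB family.

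Total counts per library ran from 47508208 to 49585010 in OA and from 43049972 to 59935521 in vehicle. All 8 mammary epithelial markers listed were detected in every library, with a summed level of 4165 to 4305 CPM in OA and 6657 to 6867 CPM in vehicle. CPM is the count of a gene relative to the size of its library, here after TMM scaling, which sets libraries on a common scale from the bulk of genes. ESR1, the estrogen receptor gene, had a low level of 0.405 to 0.922 CPM in OA and 1.5 to 1.87 CPM in vehicle. Of 15 hepatocyte markers, 13 were in the table and 5 of these were at 0 in at least 1 library. The 13 summed to 12.5, 31.1 and 95.1 CPM in OA replicates 1, 2 and 3, and to 6.69, 11.3 and 9.67 CPM in vehicle. The 2 fibroblast markers in the table, of 4 listed, summed to 55 to 59.8 CPM in OA and 20.4 to 22.1 CPM in vehicle, and the 1 endothelial marker in the table had 2.77 to 3.33 CPM in OA and 5.24 to 6.02 CPM in vehicle. Among the OA libraries, replicate 3 was the highest for 37 of the 52 replication genes, replicate 1 for 9 and replicate 2 for 6. The part of the marker levels in the changes below was not tested. Without OA replicate 3 the same number of genes was called, 51 lower and 1 higher. That omission does not address the markers, because the epithelial and fibroblast sums differed from vehicle in all 3 OA libraries.

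Replication genes fell in OA almost as a whole. OA lowered 51 of the 52 genes and raised 1, ORC4, by edgeR's quasi-likelihood test at a Benjamini-Hochberg false discovery rate of 0.01. Among all 14785 genes tested, 41.1% were called lower and 43.3% higher. The median log2 fold change, OA over vehicle, was -1.91 over the 52 genes, against 0.03 over all genes tested. In 44 of the 52 the fall was larger than 1 on the log2 scale, which means that OA held less than 50% of the vehicle level; 12.3% of all genes tested passed that mark. In 51 of the 52 all 3 OA libraries lay below all 3 vehicle libraries, as they did in 43.2% of all genes tested. Because RNA was taken from bulk cultures, fewer cells in S phase and less RNA per replicating cell cannot be told apart.

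Summed over the 52 genes, the level was 1370, 1371 and 1448 CPM in the OA libraries, against 5383, 5349 and 5299 CPM in the vehicle libraries. The lowest vehicle sum was 3.66 times the highest OA sum, and the spread within either group was small beside that gap. The fall was graded rather than uniform. It exceeded 2 on the log2 scale in 25 genes, lay between 1 and 2 in 19, and was under 1 in 7.

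**Figure D1:**
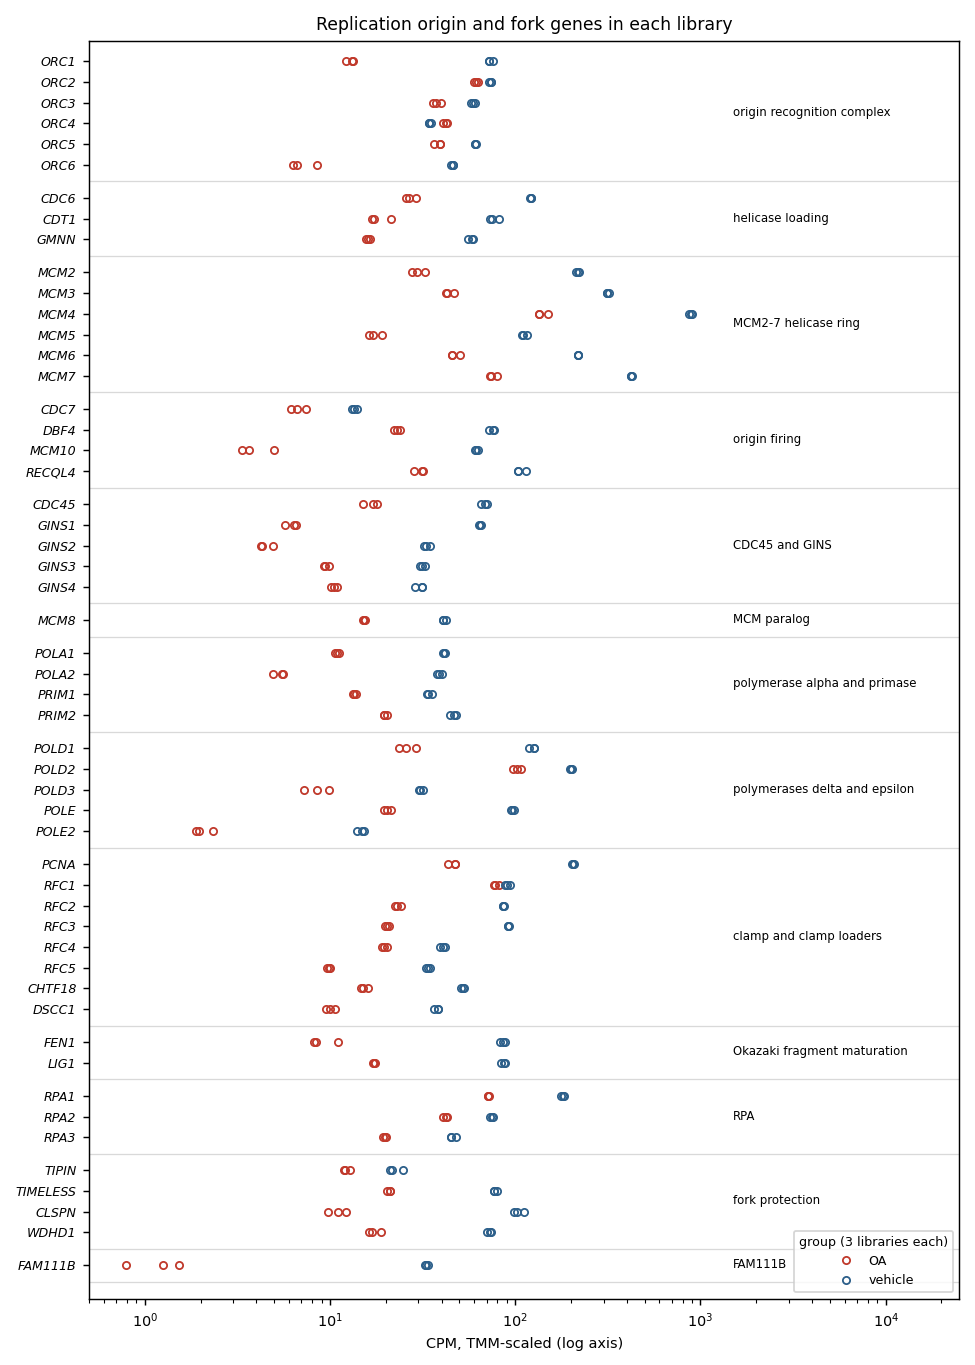
Level of each of the 52 replication genes in each library, in TMM-scaled CPM on a log axis, with the genes grouped by role; each circle is 1 library (3 OA, 3 vehicle). The OA circles sit left of the vehicle circles for every gene but ORC4, with the widest gap for FAM111B and the narrowest for RFC1 and ORC2, 2 genes whose log2 fold changes turned to 0.08 and 0.03, neither called, with libraries scaled by their totals alone.

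**Figure D2:**
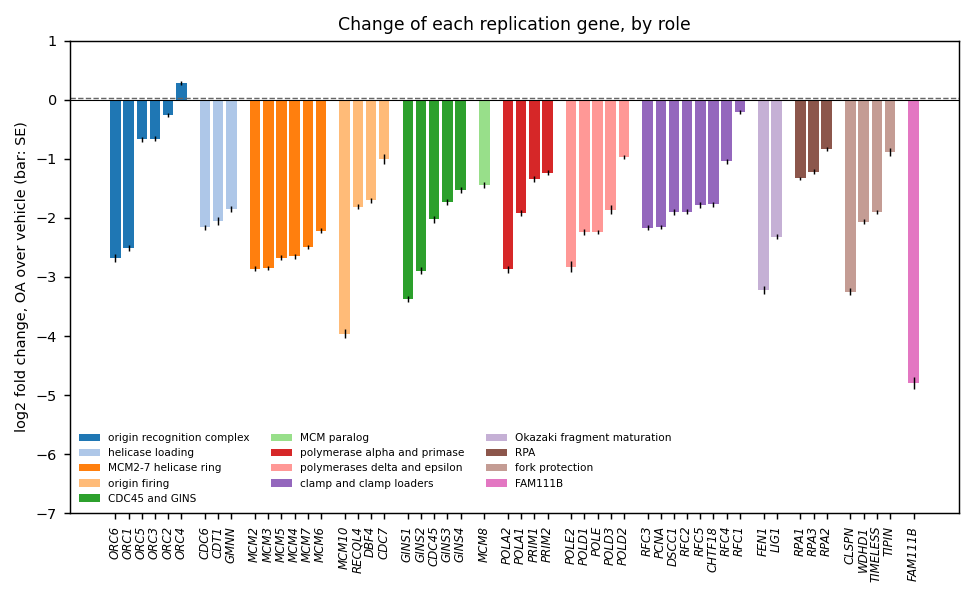
Log2 fold change of each gene, OA over vehicle, with its standard error, grouped by role; the dashed line is the median of all genes tested, 0.03. Within most roles the bars differ by more than their standard errors, from -2.68 to 0.29 in the origin recognition complex and from -2.17 to -0.21 among the clamp and its loaders; ORC2 and RFC1, the shortest bars below 0, changed sign with libraries scaled by their totals alone, where neither was called.

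The choice of scaling mattered for the small changes. With libraries scaled by their totals alone, the median over all genes tested moved to 0.32 and that over the 52 genes to -1.62 on the log2 scale. The median of the 52 genes minus that of all genes was -1.94 under either scaling. With that scaling 49 of the 52 genes were called lower, 40 by more than 1 and 16 by more than 2 on the log2 scale.

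The sequence around the start of these genes is shown first for members whose 300-base promoter window (250 bases before and 50 after a RefSeq start, GRCh38.p14) held an E2F motif. They were picked to span the helicase loader, the helicase, the GINS complex, the polymerases, the clamp and the checkpoint adaptor. Capitals mark the motif in each, and all are written 5′ to 3′ on the strand of the gene.
CDT1, chr16:88803738-88803777, + strand: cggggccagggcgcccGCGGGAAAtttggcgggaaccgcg
MCM3, chr6:52284723-52284762, - strand: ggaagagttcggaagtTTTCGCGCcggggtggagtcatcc
MCM6, chr2:135876506-135876549, - strand: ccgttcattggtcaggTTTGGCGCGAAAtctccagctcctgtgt
MCM7, chr7:100101383-100101422, - strand: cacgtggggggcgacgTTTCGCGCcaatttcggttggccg
GINS2, chr16:85688962-85689001, - strand: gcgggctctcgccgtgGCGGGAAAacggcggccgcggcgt
POLA2, chr11:65261893-65261932, + strand: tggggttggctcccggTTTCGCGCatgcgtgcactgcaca
PCNA, chr20:5126658-5126697, - strand: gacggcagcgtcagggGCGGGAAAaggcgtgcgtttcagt
CLSPN, chr1:35769960-35769999, - strand: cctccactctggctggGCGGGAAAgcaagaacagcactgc
The next 5 hold no match to the motif anywhere in their window, and 40 bases around the start are shown in lower case. ORC4, ORC2 and RFC1 changed least, and MCM10 and ORC6 were among the genes that fell most.
ORC4, chr2:148021532-148021571, - strand: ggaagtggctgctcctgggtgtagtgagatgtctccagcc
ORC2, chr2:200963641-200963680, - strand: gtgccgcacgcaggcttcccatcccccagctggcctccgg
RFC1, chr4:39366343-39366382, - strand: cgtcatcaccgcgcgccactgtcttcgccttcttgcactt
MCM10, chr10:13161538-13161577, + strand: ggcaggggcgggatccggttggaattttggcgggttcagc
ORC6, chr16:46689639-46689678, + strand: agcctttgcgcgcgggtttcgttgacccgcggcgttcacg

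The motif was searched as TTTGGCGC, TTTGCCGC, TTTCGCGC or TTTCCCGC on either strand, and in MCM6 a forward and a reverse match overlap. Of the 52 genes 43 had a promoter window, and 22 of the 43 (51.2%) held the motif in at least 1 window. Of 11046 tested genes with a window, 703 (6.36%) held it, and 3.31% of all 35116 windows in the table did. Counted by window, the motif lay in 22 of 54 windows of the replication genes (40.7%). The median log2 fold change was -2.19 in the 22 genes with the motif and -1.77 in the 21 without it. A fall of more than 2 on the log2 scale was seen in 15 genes with the motif and in 7 without it.

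The letters did not sort the genes cleanly. ORC1 (log2 fold change -2.51), ORC6 (-2.68), MCM10 (-3.96) and FEN1 (-3.21) fell with no exact match in the window, while ORC3 (-0.66) and TIPIN (-0.88) held a match and fell by less than 1 on the log2 scale. Only exact matches were counted, so a site that differs by a single base was missed. The MCM10 stretch above holds such a near match to TTTGGCGC. Among all tested genes with a window, 55.5% of those with the motif were called lower, against 42.3% of those without it. A CCAAT box (CCAAT), bound by NF-Y, lay in 26 of the 43 genes (60.5%) and in 42.6% of all tested genes with a window. A GC box (GGGCGG), bound by SP1, lay in 34 of the 43 (79.1%) and in 76.2% of all. The cell cycle homology region (TTTGAA or TTCGAA), a motif of genes that peak in mitosis, lay in 2 of the 43, DBF4 and MCM6 (4.65%), and in 15.6% of all.

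**Figure D3:**
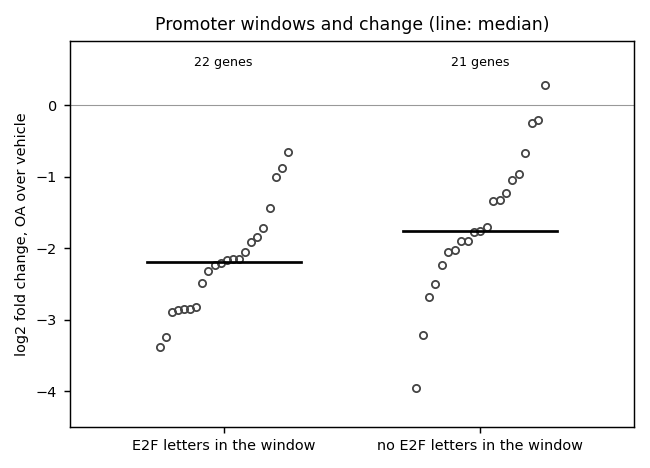
Log2 fold change, OA over vehicle, of the 43 replication genes with a promoter window; each circle is 1 gene and the line is the median of its column. The 22 genes with the E2F letters spread from -3.38 to -0.66 and the 21 without them from -3.96 to 0.29, so the columns overlap along most of their length.

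Among the subunits of the origin recognition complex, which marks origins, the response divided. ORC1, the ATP-binding subunit whose level is known to cycle in human cells, had 12.2, 13.1 and 13.3 CPM in OA, against 75.5, 72.1 and 72.2 CPM in vehicle. ORC6, a small subunit needed for helicase loading, had 6.32, 6.64 and 8.51 CPM in OA, against 46.3, 45.1 and 46.2 CPM in vehicle. Both were low in every OA library, by 2.51 ± 0.05 and 2.68 ± 0.07 on the log2 scale (SE, 3 libraries per group). The core subunits moved far less. ORC2 had 63.1, 61.3 and 60.2 CPM in OA, against 72.2, 73.6 and 74.2 CPM in vehicle, a log2 fold change of -0.25 that became 0.03, no longer called, with libraries scaled by their totals. ORC3 had 39.5, 37.2 and 35.9 CPM in OA, against 59.1, 58 and 60.4 CPM in vehicle (-0.66). ORC5, an ATP-binding subunit, had 39.3, 36.3 and 39.1 CPM in OA, against 60.4, 60.7 and 61.6 CPM in vehicle (-0.67). Both fell clear of vehicle, to 63.4% and 62.8% of its level.

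ORC4 was the single gene that rose. It had 42.8, 42.4 and 41.0 CPM in OA, against 34.3, 34.1 and 35.1 CPM in vehicle. The OA libraries were all higher and the groups did not overlap (log2 fold change 0.29, SE 0.04, adjusted p = 1.21e-06 by edgeR's quasi-likelihood test with Benjamini-Hochberg adjustment). The gene lies at chr2:147930397-148021604 (hg38, - strand) with 16 exons after merging of transcripts. It shares 430 exon bases with ACVR2A and 157 with MBD5, both on the opposite strand. Those genes averaged 13.1 and 25.5 CPM in OA and 9.01 and 12.0 CPM in vehicle. Reads from such overlaps cannot be assigned to either strand here, and their part in the rise was not tested.

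The split was measured within each library as the log2 CPM of 1 subunit minus the mean log2 CPM of its partners, a ratio in which library scaling cancels but for the prior count added to each gene. ORC6 over the mean of ORC2 to ORC5 was -2.83, -2.70 and -2.34 in OA, against -0.24, -0.27 and -0.27 in vehicle. For ORC1 the ratio was -1.89, -1.72 and -1.69 in OA, against 0.47, 0.40 and 0.37 in vehicle. In vehicle the 2 subunits therefore stood near the core in CPM, and in OA far below it. In all, 17 such ratios were computed. With 3 libraries against 3 an exact two-sided permutation test cannot give a p below 0.1, and 15 of the 17 reached it (adjusted p = 0.113 over the 17). Reaching it means only that the groups did not overlap, which was common here. OA lay wholly below vehicle in 43.2% of all genes tested, and 43.3% were called higher. The share among ratios of other genes was not computed, so the count of 15 does not set these ratios apart.

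The 3 genes that control helicase loading fell by similar amounts. CDC6, the loader ATPase, had 25.9, 26.7 and 29.0 CPM in OA, against 122, 121 and 122 CPM in vehicle (log2 fold change -2.16). CDT1, which brings the helicase to origins, had 17.3, 16.9 and 21.2 CPM in OA, against 81.4, 74.7 and 72.9 CPM in vehicle (-2.05). GMNN encodes geminin, the inhibitor of CDT1, and had 16, 15.7 and 16.4 CPM in OA, against 58.7, 55.7 and 58.8 CPM in vehicle (-1.85). Every OA library was low for all 3 genes. The ratios between them were the only 2 of the 17 whose groups overlapped. CDC6 over CDT1 differed by -0.11 and GMNN over CDT1 by 0.21 on the log2 scale (exact permutation p = 0.2 for each, adjusted p = 0.2).

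The helicase ring had the highest summed CPM of any role in vehicle. Its 6 genes summed to 343, 341 and 379 CPM in OA, against 2190, 2179 and 2139 CPM in vehicle, so OA held 16.3% of the vehicle level. All 6 fell by more than 2 on the log2 scale, though MCM6 came to -1.93 with libraries scaled by their totals. MCM2 fell furthest, with 29.6, 27.7 and 32.5 CPM in OA, against 219, 220 and 212 CPM in vehicle (log2 fold change -2.86, SE 0.04). MCM6 fell least, with 45.8, 45.4 and 50.3 CPM in OA, against 218, 219 and 219 CPM in vehicle (-2.21, SE 0.04). The other ring subunits lay between these. MCM3, which differed from MCM2 by less than the SE, had 42.8, 42.5 and 46.5 CPM in OA, against 314, 319 and 314 CPM in vehicle (-2.85). MCM4 had 135, 135 and 151 CPM in OA, against 897, 886 and 863 CPM in vehicle (-2.65). The CPM of MCM4 were the highest of the 52 genes, and those of MCM5 the lowest of the 6 ring genes, in both groups. MCM5 had 16.3, 17.1 and 19 CPM in OA, against 115, 110 and 108 CPM in vehicle (-2.67). MCM7 had 73.6, 73.1 and 79.3 CPM in OA, against 427, 424 and 422 CPM in vehicle (-2.49). OA replicate 3 was the highest of the OA libraries for each of the 6 genes, but still far below vehicle.

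Per kilobase of exon, MCM4 had the highest level of the 52 genes in vehicle, at 179 ± 3.48 CPM per kb (SD, n = 3), followed by PCNA at 142, MCM7 at 116 and MCM3 at 98.4 CPM per kb, with no overlap between these neighbours. In OA the order of levels was different. POLD2 led at 44.3 CPM per kb, then PCNA at 32 and MCM4 at 28.6 CPM per kb, whose ranges overlapped. ORC5, ORC2, RPA1 and RFC1, all below the ring genes MCM2 and MCM3 in vehicle, followed RPA2 and MCM7 in OA at 16 to 17 CPM per kb, and their neighbouring ranges overlapped.

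MCM8 is a paralog of the ring that acts with MCM9 in recombination repair. It had 15.5, 15 and 15.2 CPM in OA, against 42.4, 40.8 and 41.0 CPM in vehicle (log2 fold change -1.44, SE 0.04). MCM8 thus fell less than the ring, and its log2 ratio to the mean of the 6 ring genes was 1.18 higher in OA, with no overlap between the groups. In the GENCODE annotation 65.4% of its exon bases are shared with a protein-coding gene model on the same strand. That model was not found by name among the counted genes.

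**Figure D4:**
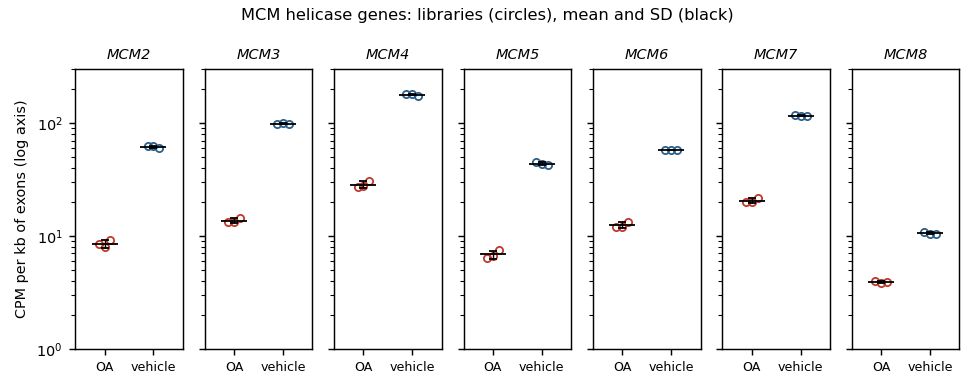
Level of the 6 helicase ring genes and of MCM8 in each library, in CPM per kilobase of exon on a log axis; circles are libraries and the black marks are the mean and SD of 3. MCM4 led the ring in both groups, at 28.6 in OA and 179 in vehicle, and the gap between the groups is narrower for MCM8 than for any ring gene.

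Of the 4 genes that act at origin firing, MCM10 changed most. MCM10, a scaffold for helicase activation, had 3.33, 3.63 and 4.95 CPM in OA, against 62.9, 60.8 and 61.5 CPM in vehicle. Its level in OA was 6.42% of that in vehicle (log2 fold change -3.96, SE 0.08), at rank 28 from the bottom among the 14785 genes tested. The kinase pair was uneven. CDC7, the catalytic subunit, had 7.42, 6.13 and 6.66 CPM in OA, against 13.1, 13.4 and 14.1 CPM in vehicle (-1.0). DBF4, its regulatory subunit, had 22.9, 22.3 and 23.9 CPM in OA, against 72.3, 77.0 and 75.7 CPM in vehicle (-1.70). The log2 ratio of DBF4 to CDC7 was 0.70 lower in OA, and the groups did not overlap. RECQL4, a helicase needed for initiation, had 28.4, 31.5 and 31.6 CPM in OA, against 114, 103 and 103 CPM in vehicle (-1.81).

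CDC45 and the 4 GINS subunits complete the active helicase, and all 5 fell. GINS1 had 6.37, 5.69 and 6.55 CPM in OA, against 63.8, 64.6 and 65.1 CPM in vehicle (log2 fold change -3.38, SE 0.05). GINS4, at the other end, had 10.2, 11.0 and 10.6 CPM in OA, against 31.4, 31.3 and 28.6 CPM in vehicle (-1.53, SE 0.06). GINS2 had 4.26, 4.29 and 4.94 CPM in OA, against 33.0, 34.6 and 32.3 CPM in vehicle (-2.89). The proteins stand in equal numbers in the complex, and their RNAs did not keep their proportions. GINS3 had 9.41, 9.82 and 9.33 CPM in OA, against 32.4, 30.6 and 31.4 CPM in vehicle (-1.73), and its log2 ratio to the mean of the other GINS genes was 0.87 higher in OA without overlap. GINS4, part of that mean, fell less than GINS3, so the difference came from GINS1 and GINS2. CDC45 had 17.2, 15 and 18 CPM in OA, against 70.1, 64.9 and 69.1 CPM in vehicle (-2.02).

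Among the genes of polymerase alpha and primase, the primase genes fell least and POLA2 furthest. POLA2, the regulatory B subunit, had 4.92, 5.51 and 5.55 CPM in OA, against 40.2, 38.0 and 38.7 CPM in vehicle (log2 fold change -2.87, SE 0.06). POLA1, the catalytic subunit, had 10.7, 11.2 and 10.9 CPM in OA, against 41.1, 40.7 and 41.6 CPM in vehicle (-1.91, SE 0.05). In the GENCODE annotation 55.1% of the exon bases of POLA2 are shared with a gene model on the same strand, which was not found by name among the counted genes. In vehicle the pair had nearly equal CPM, and in OA every library held less POLA2 than POLA1, a log2 ratio lower by 0.95. The primase genes PRIM1 (13.5, 13.3 and 13.8 CPM in OA, against 33.5, 33.9 and 35.6 CPM in vehicle) and PRIM2 (19.7, 19.5 and 20.2 CPM in OA, against 44.7, 48 and 46.9 CPM in vehicle) fell by 1.34 and 1.23. Their ratio changed by 0.11 on the log2 scale.

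Among the genes of the replicative polymerases, POLE2 fell furthest and POLD2 least. POLE2, the second subunit of polymerase epsilon, had 1.97, 1.90 and 2.34 CPM in OA, against 15.2, 14 and 14.8 CPM in vehicle (log2 fold change -2.83, SE 0.09). POLE, the catalytic subunit of the leading-strand polymerase, had 19.5, 20.4 and 21.5 CPM in OA, against 98.1, 94.8 and 96.3 CPM in vehicle (-2.24). POLE2 thus fell more than its partner, by 0.57 on the log2 scale. POLD1, the catalytic subunit of polymerase delta, had 23.7, 25.7 and 29.2 CPM in OA, against 126, 126 and 118.8 CPM in vehicle (-2.24). POLD3, an accessory subunit, had 7.22, 8.52 and 9.85 CPM in OA, against 30.3, 31.9 and 30.7 CPM in vehicle (-1.86), and its ratio to POLD1 was 0.37 higher in OA. POLD2, the subunit that bridges POLD1 and POLD3, had 97.4, 102 and 108 CPM in OA, against 202, 201 and 198 CPM in vehicle (-0.97, SE 0.03). OA replicate 3 was the highest OA library for all 5 genes, and no OA library reached a vehicle library.

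The sliding clamp and the subunits of its loaders were all called lower, but 1 subunit changed little. PCNA, the clamp, had 43.3, 47.6 and 47.5 CPM in OA, against 204, 202 and 207 CPM in vehicle (log2 fold change -2.15, SE 0.04). RFC1, the large subunit of the canonical loader, had 81.2, 77.5 and 76.3 CPM in OA, against 87.8, 93.9 and 90.1 CPM in vehicle. Its log2 fold change was -0.21 (adjusted p = 1.74e-05, edgeR's quasi-likelihood test with Benjamini-Hochberg adjustment, the highest among the 52 genes), and it turned to 0.08, no longer called, with libraries scaled by their totals. The small subunits RFC2 to RFC5, which RFC1 shares with the alternative loaders, fell much more. RFC2 had 23, 22.3 and 24.1 CPM in OA, against 85.5, 86.1 and 86.6 CPM in vehicle (-1.89). RFC3, the furthest of the 8 genes but beyond PCNA by less than the SE, had 20.9, 19.9 and 20.4 CPM in OA, against 91, 91 and 92.7 CPM in vehicle (-2.17). RFC4, the mildest of the small subunits, had 19.6, 19.2 and 20.2 CPM in OA, against 40.9, 39.2 and 41.5 CPM in vehicle (-1.04). All of these stood well apart from vehicle, as did RFC5, which had 9.82, 10.1 and 9.68 CPM in OA, against 33.7, 34.7 and 33.1 CPM in vehicle (-1.78).

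Within each library, RFC1 over the mean of RFC2 to RFC5 was 2.22, 2.18 and 2.11 in OA, against 0.62, 0.72 and 0.64 in vehicle on the log2 scale. The difference of 1.51 was the largest rise among the 17 ratios. CHTF18 and DSCC1 belong to an alternative loader that acts in sister chromatid cohesion. CHTF18 had 14.7, 15.2 and 16 CPM in OA, against 52.9, 52.1 and 51.0 CPM in vehicle (-1.77), and DSCC1 had 9.56, 10.02 and 10.6 CPM in OA, against 36.3, 38.3 and 38.2 CPM in vehicle (-1.90). Their log2 ratio differed by -0.13.

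Okazaki fragment maturation was represented by the flap nuclease FEN1 and the ligase LIG1. FEN1 had 8.44, 8.16 and 11.0 CPM in OA, against 87.7, 85.4 and 82.4 CPM in vehicle (log2 fold change -3.21, SE 0.07). LIG1 had 17.2, 17.6 and 17.1 CPM in OA, against 88.1, 86.5 and 84.2 CPM in vehicle (-2.32, SE 0.04). The genes had close CPM in vehicle, where their log2 ratio was -0.01, -0.02 and -0.03, and in OA it was -1.03, -1.10 and -0.63. OA replicate 3 carried the smallest gap, but it still stood clear of vehicle. FEN1 shares 166 exon bases with TMEM258 on the opposite strand and 49 with FADS2 on its own.

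RPA, the trimer that coats single-stranded DNA, changed less than most groups. RPA1, the large subunit, had 71.5, 71.1 and 72.0 CPM in OA, against 176, 183 and 181 CPM in vehicle (log2 fold change -1.33, SE 0.03). RPA2 had 40.9, 42.1 and 42.6 CPM in OA, against 72.9, 75.5 and 74.5 CPM in vehicle (-0.83). RPA3, the smallest subunit, had 19.3, 19.8 and 19.95 CPM in OA, against 44.9, 44.8 and 47.7 CPM in vehicle (-1.22). The 3 OA libraries were close to each other for every subunit, and RPA1 fell more than the mean of its partners by 0.31 on the log2 scale. RPA acts in repair as well as at forks.

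The fork protection genes were spread widely. CLSPN encodes claspin, an adaptor that carries the stress signal from ATR to CHK1, and had 9.76, 11.0 and 12.2 CPM in OA, against 112, 102 and 98.8 CPM in vehicle (log2 fold change -3.25, SE 0.06). TIMELESS, which travels with the fork, had 20.3, 21.0 and 21.2 CPM in OA, against 76.6, 79.3 and 77.3 CPM in vehicle (-1.90). TIPIN, its binding partner, had 12.0, 11.8 and 12.8 CPM in OA, against 21.7, 24.7 and 21.0 CPM in vehicle (-0.88, SE 0.06). The partners did not fall together, and the log2 ratio of TIPIN to TIMELESS was 1.02 higher in OA. WDHD1, which links the helicase to polymerase alpha, had 18.8, 16.3 and 16.9 CPM in OA, against 70.4, 74.2 and 72.9 CPM in vehicle (-2.06).

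FAM111B, a protease gene of incompletely known function related to FAM111A, showed the largest fall of the 52 genes. It had 0.792, 1.26 and 1.54 CPM in OA, against 33.8, 33.1 and 32.5 CPM in vehicle. The OA level was 3.61% of the vehicle level (log2 fold change -4.79, SE 0.10), at rank 3 from the bottom among the 14785 genes tested. The gene lies at chr11:59107185-59127416 (hg38, + strand) with 4 merged exons. Its paralog FAM111A, a PCNA-binding protease, had 10.4, 11.2 and 11.4 CPM in OA, against 42.6, 38.5 and 40.3 CPM in vehicle (-1.88). FAM111B over FAM111A was -3.64, -3.11 and -2.86 in OA, against -0.33, -0.22 and -0.31 in vehicle, on the log2 scale. The OA library with the lowest level of FAM111B rested on 43 counts.

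**Figure D5:**
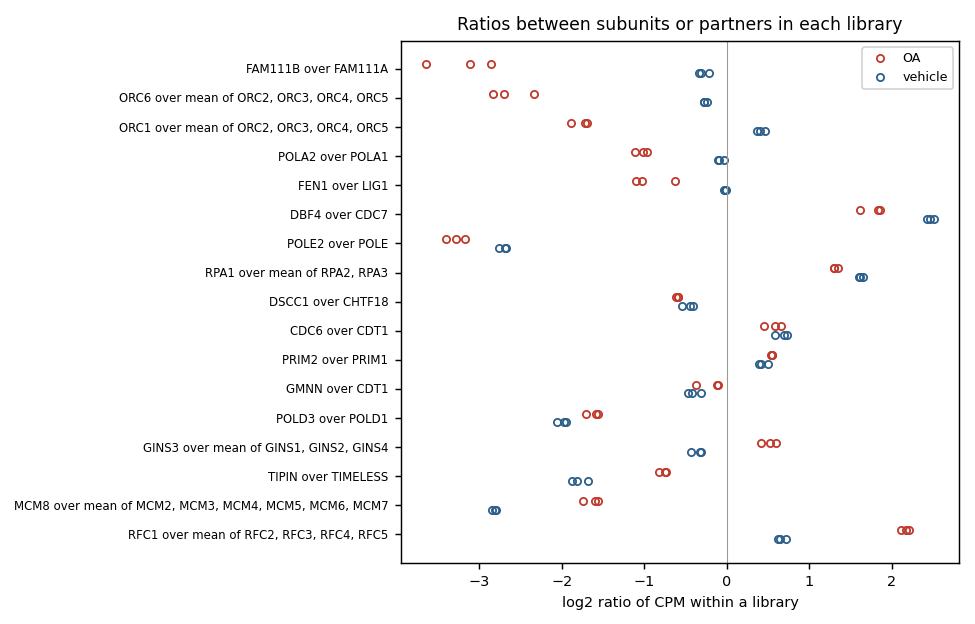
Log2 ratio of CPM between subunits or partners within each library for the 17 pairs or sets, ordered by the difference of OA from vehicle; each circle is 1 library. The circles of OA and vehicle overlap only for CDC6 over CDT1 and GMNN over CDT1, and the shift runs from -2.92 for FAM111B over FAM111A to 1.51 for RFC1 over its partners. Separate groups were common among all genes tested, and their share among ratios of other genes was not computed.

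Genes around the same processes were taken from lists drawn up by function, and their counts stand against 41.1% lower and 43.3% higher among all genes tested. Of 22 other replication genes tested, 18 fell, 2 rose and 2 were not called, with a median log2 fold change of -1.25. TICRR, which loads CDC45, fell by 3.73 and the topoisomerase TOP2A by 3.69, while POLE3, a histone-fold subunit of polymerase epsilon, fell by 1.66. The genes that rose were POLD4, the fourth subunit of polymerase delta (0.89), and CTC1 of the telomere CST complex (0.21). Of 14 genes of chromatin assembly at forks, 13 fell, among them the histone chaperones RBBP4 (-1.86) and ASF1B (-3.62) and the maintenance methyltransferase DNMT1 (-2.02). ASF1A, the paralog of ASF1B, rose by 0.17.

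The ATR and CHK1 checkpoint list had 8 of 10 genes lower and none higher, against 41.1% and 43.3% of all genes tested, with a median of -0.69, and ATR (-1.53), TOPBP1 (-1.47) and CHEK1 (-1.06) had the smallest p. The list of translesion and repair polymerases was divided about as all genes tested were (41.1% lower, 43.3% higher). In it 7 of 14 fell, with POLQ at -2.89, RAD18 at -1.78 and the mitochondrial POLG at -1.36, and 7 rose, namely POLI (0.63), POLK (0.28), MAD2L2 (0.47), POLB (0.44), POLL (0.71), POLM (0.12) and POLN (1.20). The call on POLM was lost under 9 of the 18 other settings tried.

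Regulators of these genes, as known from other work, were also measured. In the list of E2F and pocket protein regulators 14 of 18 fell and 3 rose, against 41.1% lower and 43.3% higher among all genes tested. E2F1 had 8.27, 8.58 and 8.49 CPM in OA, against 44.2, 41.5 and 41.2 CPM in vehicle (log2 fold change -2.33). Its dimer partner TFDP1 fell by 1.63 and MYBL2 by 2.63, while E2F5 (1.01), TFDP2 (0.24) and LIN37 of the DREAM complex (0.51) rose. Among the other genes of that list, E2F2 (-3.82), E2F3 (-0.62), E2F4 (-1.33), E2F7 (-1.64) and E2F8 (-3.07) fell, and E2F6 was not called. LIN9 (-1.27), LIN52 (-0.43) and LIN54 (-0.37) fell as well. Of the pocket proteins, RBL1 (-1.71) and RBL2 (-0.89) fell. RB1 was called lower but changed little, with a mean of 187 CPM in OA against 206 CPM in vehicle (-0.14). Of 16 genes of S phase kinases and licensing turnover 13 fell and 3 rose, beside the same shares of all genes, led by CCNA2 (-4.21), CCNE2 (-3.82) and DTL (-3.09), which targets CDT1 for destruction. The 3 that rose were all inhibitors of cyclin-dependent kinases. CDKN1A, which encodes p21, had 1222, 1297 and 1228 CPM in OA, against 614, 599 and 574 CPM in vehicle (1.07). CDKN1C had 1.31, 1.66 and 1.77 CPM in OA, against 0.315, 0.419 and 0.332 CPM in vehicle (2.15), and CDKN1B rose by 0.17, a call lost under 4 of the 18 settings.

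Of the 52 genes, 20 share exon bases with another gene of the GENCODE annotation and 11 have pseudogenes named after them, among them PCNA, RPA3 and DBF4. That annotation may differ from the one used for counting. Multi-mapped reads were excluded before counting and no source used here gives the strand setting, so the levels of these genes carry that uncertainty.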

How the data were processed

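Reads of 6 libraries were aligned by the authors to hg38 with STAR and counted per gene, and low-quality and multi-mapped reads were left out. The submitters' processing notes name STAR 2.5, edgeR 3.30.3, featureCounts 1.5.1 of Subread, MultiQC 0.11.5 and FastQC. The sources differ on read length and layout, and the dose for this line is not used here. The authors deposited raw counts per gene, with no normalization, and gene lengths. The lowest total of a gene over the 6 libraries was 14.

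Tests were run on these in edgeR 4.0.16 under R 4.3.3 (TMM scaling, filterByExpr, which removed 18 genes, two-sided quasi-likelihood test, Benjamini-Hochberg adjustment over 14785 genes, false discovery rate 0.01, no covariate). Log2 fold changes had a median SE of 0.053. CPM per kb used the authors' gene length. Ratios used log2 CPM with a prior count of 2 and an exact permutation test. Only the edgeR fit was run on simulated counts, with changes added to a minority of genes in both directions. The ratios, the promoter search and a case in which most genes change were not simulated.

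The members and lists were chosen with earlier results of these data known, and the lists are not independent evidence. Per-library values were given for the largest and smallest change in each role, every gene called higher and every gene of a ratio. Those of the remaining members and of E2F1, CDKN1A and CDKN1C were added after their values were seen. In each list the 3 smallest p and genes against the majority were named. E2F2, E2F3, E2F4, E2F6, E2F7, E2F8, RB1, RBL1, RBL2, LIN9, LIN52 and LIN54 were named after their values were seen. The listed genes TEN1 and ATRIP were not analysed here. RefSeq promoter windows were matched by symbol. Ratios were also computed with a smaller prior count. Alternatives were other scalings (RLE, upper quartile, library totals), other filters, the likelihood ratio test that the study used, DESeq2 1.42.0, limma-voom (limma 3.58.1), a replicate block, omission of libraries, a false discovery rate of 0.05, and omission of mitochondrial genes with the 20 most abundant.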

Additional observations from a re-analysis of the deposited data

How the results depend on the processing

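Under 18 alternatives the call and direction of the 52 genes were kept in 932 of 936 values. The 4 exceptions came from RFC1 and ORC2, not called under these scalings: RFC1 turned to 0.018 with upper quartile scaling and to 0.076 with library totals, and ORC2 to 0.033 with library totals and to -0.03 with upper quartile scaling. The median log2 fold change of the 52 genes moved to -1.68 with upper quartile scaling and to -1.62 with library totals, and the count of genes lower by more than 2 fell to 18 and to 16, against 25. The median of all genes moved to 0.26 and 0.32 there, so the share of higher calls rests on the scaling (4687 lower and 7857 higher genes, and 4341 and 8223, against 6084 and 6409). Leaving out each library in turn gave 51 lower and 1 higher gene each time, a median of -1.97 to -1.90 and 43 to 45 genes lower by more than 1. None of the 17 ratios changed direction in the alternatives run for them, a smaller prior count, the replicate block and the omission of libraries. Among the list genes, POLM, CDKN1B, CTC1 and POLN lost their call in at least 1 setting, CTC1 and POLN only without OA replicates 2 and 3 together. No pairing by replicate number was seen: deviations of same-numbered libraries correlated at -0.26, 0.04 and -0.20, and OA replicate 1 correlated best with vehicle replicate 3 (0.29). Deviations were taken from the mean of each group of 3, which constrains these correlations, so they cannot exclude a pairing. The replicate block gave 51 lower genes, 1 higher gene and a median of -1.91. Depth limits FAM111B most, at 43 counts in OA replicate 1.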
